A study of Homo sapiens with 5 samples.

Results

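The nucleotide synthesis genes were a list of 34 protein-coding genes, grouped by the known function of their enzymes. The rule for the list used no measured value, although earlier results of these data were known when it was made. All 34 matched a single protein-coding symbol among the 20098 protein-coding genes of the annotation, and the other 20064 genes served as the comparison. The list held 6 genes of de novo purine synthesis, 4 of the branch from IMP to AMP and GMP, 2 that make the shared sugar phosphate PRPP, 5 of pyrimidine synthesis, 10 of deoxynucleotide supply, 5 of folate metabolism and 2 of purine base salvage. For each gene, peaks of 3 transcription factors were counted within 2 kb upstream and 2.5 kb downstream of any of its transcription start sites (TSSs). Such a peak is called a promoter peak here.

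The study mapped the binding of MYC, E2F1 and Fra-1 by ChIP-Seq in LM2 cells, a derivative of the triple-negative breast cancer line MDA-MB-231 that metastasizes to the lung. The labels give the cells of every sample as untreated. A supplement of the study also names cells with a control vector or an shRNA in connection with ChIP-Seq, and the labels give no vector for these libraries. All came from this 1 line, with 1 library per factor and 1 input library, made from chromatin without immunoprecipitation, that served for every factor. Peaks were called for each factor against this input. The fourth TF of the study was not analysed here.

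Because there was 1 library per factor, the values have no replicate error and no statistical test was made. Fold enrichment is the pileup of fragments at a peak summit divided by the local background from the input. After removal of tags at the same position, the libraries held between 10758036 tags (input) and 23853621 tags (MYC). With 4867 listed peaks, MYC had fewer than Fra-1 (17320) and E2F1 (36933). A gene without a listed peak had none detectable at this depth. Fold enrichments were therefore compared within a factor, and each gene's best promoter peak was also ranked as a percentile among all protein-coding genes with a promoter peak of that factor.

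Purine nucleotides are assembled step by step on PRPP until IMP is formed, which is then converted to AMP or GMP, whereas the pyrimidine ring is made first and attached to PRPP afterwards. Ribonucleotide reductase turns ribonucleotides into deoxyribonucleotides, and folate carries the carbon units needed for the purine ring and for thymidylate. MYC and the E2F factors are known regulators of these genes in proliferating cells. MYC binds with its partner MAX to the E-box (letters CACGTG), E2F1 binds to GC-rich sites and is best known for genes of the S phase, and Fra-1 is a subunit of AP-1.

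MYC and E2F1 peaks were common at these genes, whereas Fra-1 peaks were not. A MYC promoter peak was present at 23 of the 34 genes (67.6%), whereas it was present at 17.8% of all protein-coding genes. An E2F1 promoter peak was present at all 34 genes, against 61.3% of all protein-coding genes. A Fra-1 promoter peak was present at 4 genes (11.8%), against 13.2% of all protein-coding genes. The share with a MYC peak was thus 3.81 times that of the other protein-coding genes, that with an E2F1 peak 1.63 times and that with a Fra-1 peak 0.888 times. The E2F1 ratio was limited by the share of 34 of 34. With each list reduced to its 4867 peaks of highest −log10 q, the MYC ratio was unchanged at 3.81, that of E2F1 was 2.76 and that of Fra-1 was 1.72. The Fra-1 ratio, which then rested on 2 genes, thus turned from below to above 1.

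By combination of factors, 19 of the 34 genes had MYC and E2F1 peaks without a Fra-1 peak (13.1% of all protein-coding genes). All 3 factors had a peak at 4 genes (4.67% of all protein-coding genes), namely PFAS, NME1, MTHFD1 and MTHFD1L. E2F1 alone had a peak at 11 genes (35.8% of all protein-coding genes), which were IMPDH1, GMPS, PRPS1, PRPS2, UMPS, CTPS2, RRM2B, DUT, DCK, SHMT1 and HPRT1. E2F1 and Fra-1 without MYC had peaks at 0 of the 34 genes (7.67% of all protein-coding genes). None of the 34 was free of all 3 factors, whereas 37.8% of all protein-coding genes were.

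**Figure D1:**
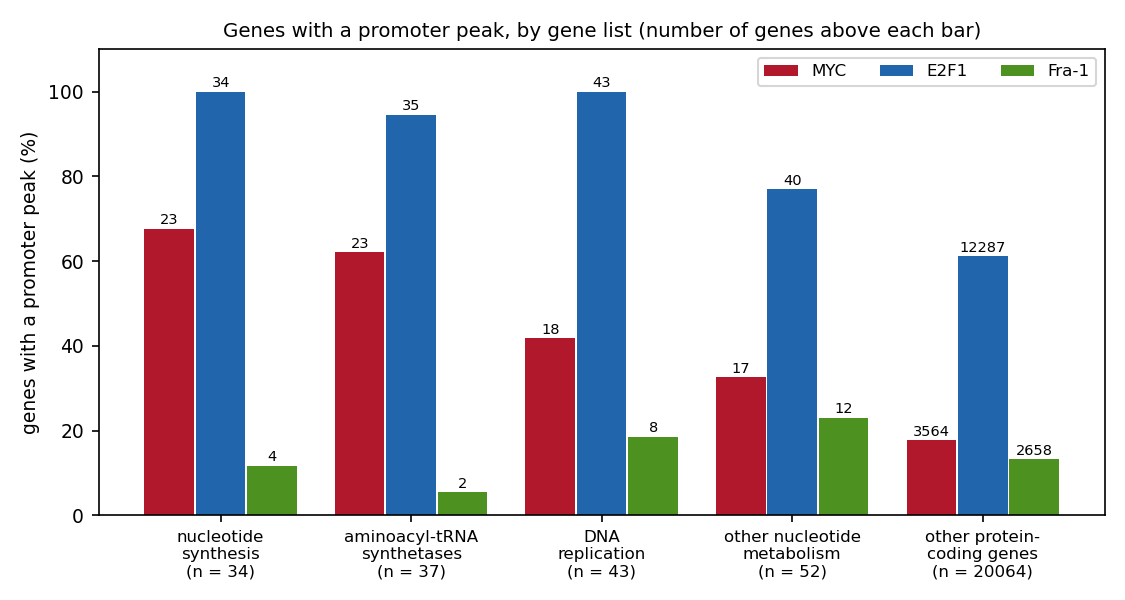
Share of genes with a promoter peak (y axis, % of the genes in a list) for MYC, E2F1 and Fra-1 in the 34 nucleotide synthesis genes, in 3 other gene lists and in the other protein-coding genes, with the number of genes above each bar. The MYC bar is at 67.6% for nucleotide synthesis, 62.2% for aminoacyl-tRNA synthetases, 41.9% for DNA replication and 17.8% for the other protein-coding genes.

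The promoters of the 34 genes were richer in G and C and had more annotated TSSs than those of other genes. Within 250 bp of the canonical TSS, their median G+C content was 69.3%, against 64.5% for the other genes, and the median number of TSSs per gene was 10, against 5. Among genes with a CpG-rich canonical TSS, defined by an observed-to-expected CpG ratio of at least 0.6 and a G+C content of at least 55%, 22 of 33 members had a MYC peak (66.7%), against 24.4% of the other genes. An E2F1 peak was at 33 of 33, against 79.2%, and a Fra-1 peak at 4 of 33 (12.1%), against 15.5%.

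In the genes with a peak, the best MYC fold enrichment had a median of 8.38, against 7.20 in the other genes, and 15 of the 23 genes were above the latter value. For E2F1 the medians were 34.01 and 21.99, and 27 of the 34 genes were above the median of the other genes. The summits were close to a TSS. The median distance to the nearest TSS of the gene was 47 bp for MYC, against 127 bp in the other genes, and 31 bp for E2F1, against 91 bp. The distance depended on the many alternative TSSs: measured from the canonical TSS alone, the medians were 219 bp for the 23 genes with a MYC peak and 84.5 bp for the 34 genes with an E2F1 peak. Medians from the canonical TSS were not computed for the other genes.

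**Figure D2:**
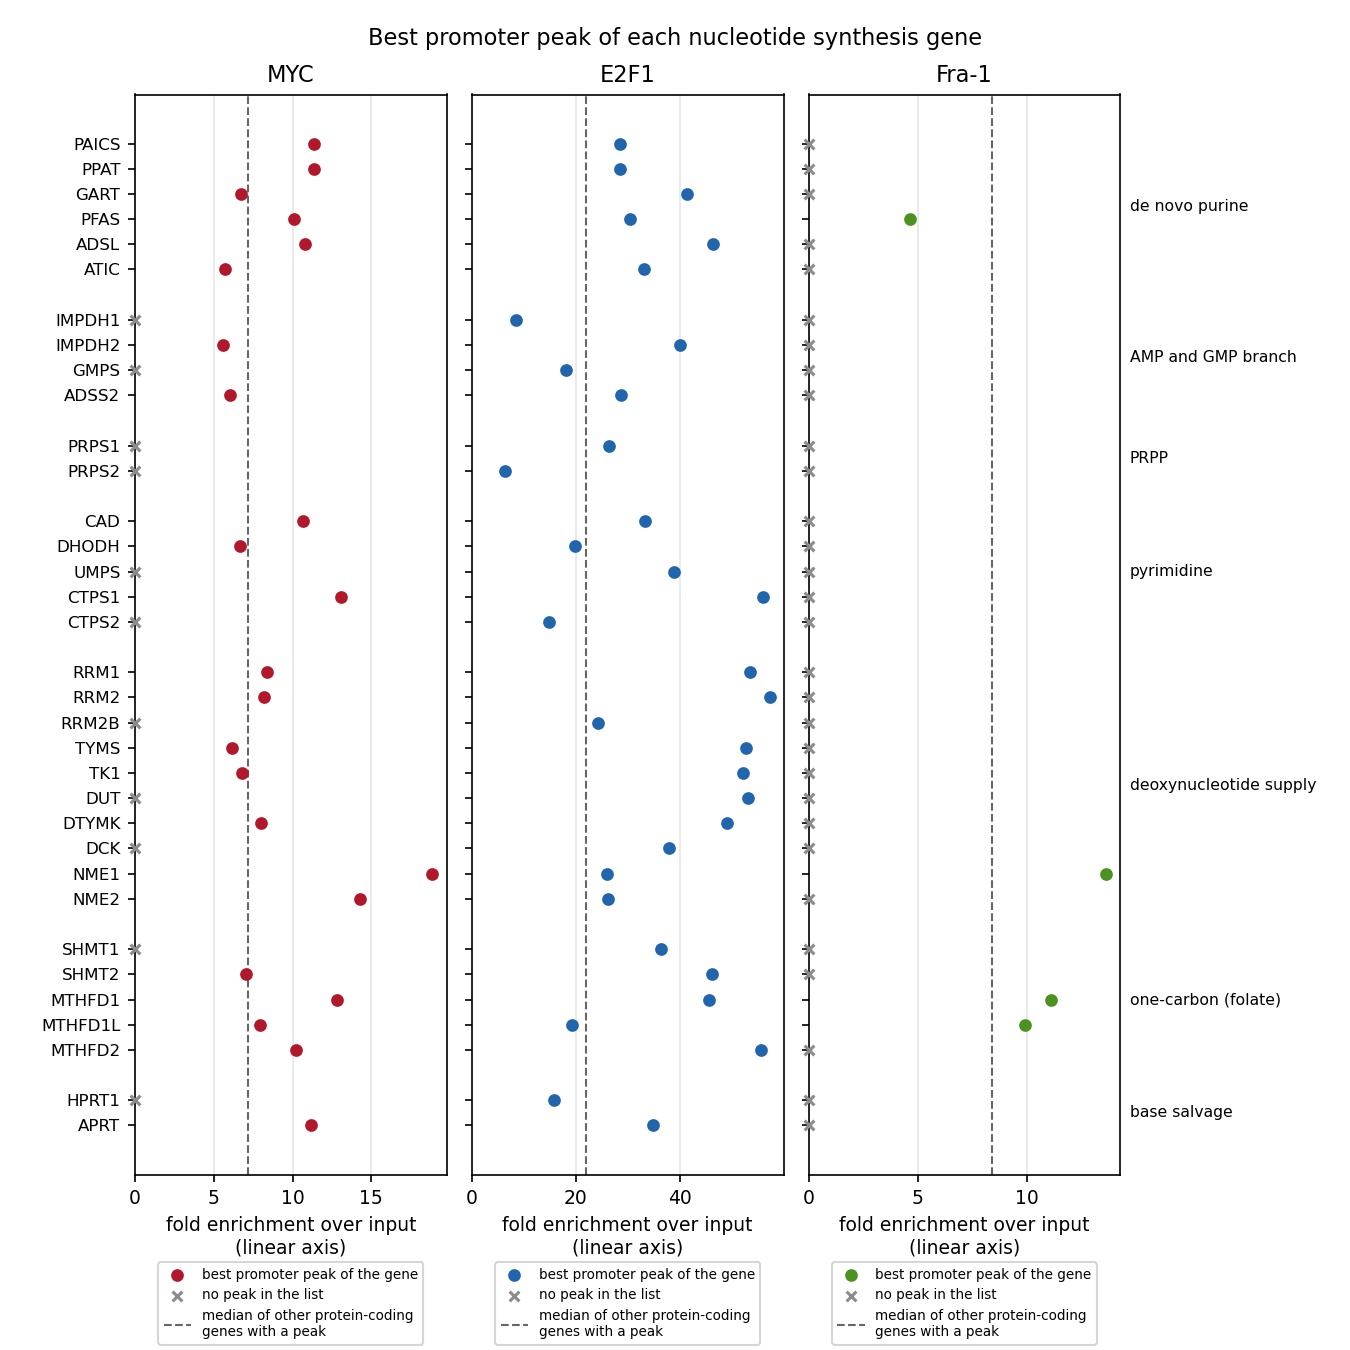
Fold enrichment over input (x axes, linear, no unit) of the best promoter peak of each of the 34 genes for MYC, E2F1 and Fra-1, with genes grouped by pathway, a cross at 0 where no peak was listed and a dashed line at the median of the other protein-coding genes with a peak. All 34 genes have an E2F1 value, from 6.43 at PRPS2 to 57.4 at RRM2, whereas 11 genes have no MYC peak and 30 no Fra-1 peak.

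The de novo purine genes were the group in which every gene had a MYC peak, 6 of 6. Their best MYC fold enrichments ranged from 5.69 to 11.4 and their best E2F1 fold enrichments from 28.5 to 46.4. PAICS, a bifunctional enzyme of the middle of the pathway and a member of the nine-gene set of the study, and PPAT, which catalyses the committed step, lie head to head on chromosome 4. Divergent neighbours within 1 kb, protein-coding or long non-coding, that share a promoter peak were found for 8 of the 34 genes. For 4 of these (PAICS, PPAT, GART and TK1) the neighbour was protein-coding. Such neighbours were not counted for the other genes. The canonical TSSs of PAICS and PPAT were 645 bp apart, and these genes shared all of their promoter peaks.

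The stronger MYC peak at PPAT and PAICS spanned chr4:57301341-57302159 (hg19) with a fold enrichment of 11.4, at the 89.1st percentile. Its summit was 219 bp downstream of the canonical TSS of PPAT, in a coding exon. A weaker MYC peak at chr4:57302344-57302806 had a fold enrichment of 6.65, with its summit 52 bp downstream of the canonical TSS of PAICS, in the 5′ UTR. A single E2F1 peak, chr4:57300968-57302874, covered both MYC peaks over 1907 bp, with a fold enrichment of 28.5 and its summit 31 bp downstream of the TSS of PAICS. The E2F1 summit lay 21 bp from that of the weaker MYC peak and 895 bp from that of the stronger one. The values of PAICS and PPAT are therefore the same measurements, and with PPAT left out the ratio of MYC shares was 3.75. No Fra-1 promoter peak was listed at PAICS, and the nearest Fra-1 summit was 205 kb from its canonical TSS. The study describes coordinated binding of its TFs, Fra-1 among them, at the promoters of the nine-gene set. The reason for this difference was not tested.

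The MYC peaks at PPAT and PAICS held 4 E-boxes. They are shown because this is the promoter of PAICS and because no other gene of the list had more of them in its MYC peaks. All are read on the plus strand of GRCh37, which is the strand of PAICS, with the E-box in capitals.
E-box at chr4:57301646-57301675: cgccgccgaaagCACGTGgaaggacctgcc
E-box at chr4:57301946-57301975: ctgtatttgctgCACGTGgaaatctccgtt
E-box at chr4:57302545-57302574: tgagctcgcggcCACGTGcgagccgcgaaa
E-box at chr4:57302613-57302642: cgcgcgggcgcaCACGTGgcccaggcgctc
The first pair lay 96 and 396 bp from the stronger MYC summit and the second pair 79 and 147 bp from the weaker one, so none was within 50 bp of a summit. All 4 were also inside the E2F1 peak.

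PFAS, which converts FGAR to FGAM, had a MYC peak of fold enrichment 10.1 with its summit 79 bp downstream of the canonical TSS, in intron 1, and an E2F1 peak of 30.3. A second cluster of peaks lay around an alternative TSS, where MYC (7.04), E2F1 (28.5) and Fra-1 (4.66) had their summits 1346, 1326 and 1397 bp upstream of the canonical TSS. The Fra-1 peak was at the 4.45th percentile and had a −log10 q of 2.97. PFAS was thus among the genes with all 3 factors through a weak Fra-1 peak.

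ADSL, which acts both in the assembly of IMP and in the AMP branch, had a MYC fold enrichment of 10.8 and the highest E2F1 fold enrichment of the group, 46.4, with summits 138 and 33 bp downstream of the canonical TSS. GART, a trifunctional enzyme, had its best MYC (6.70) and E2F1 (41.5) summits 25 bp apart at an alternative TSS, 702 and 727 bp upstream of the canonical one. GART shares this region with SON, whose TSS lies 921 bp from its own on the other strand. ATIC, which completes IMP, had a weak MYC peak of 5.69 at the 18.3rd percentile, 40 bp upstream of the canonical TSS, and an E2F1 peak of 33.1.

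The genes that lead from IMP to AMP and GMP were less uniform, with MYC peaks at 2 of 4. IMPDH2, the GMP-branch enzyme that is the main form in proliferating cells, had the lowest best MYC fold enrichment of the list, 5.60, and an E2F1 fold enrichment of 40.1, with summits 1 bp apart. Its isoenzyme IMPDH1 had no MYC peak and an E2F1 fold enrichment of 8.48, at the 10.6th percentile. GMPS, which makes GMP, had E2F1 only, at 18.1. ADSS2, the adenylosuccinate synthase of most tissues, had a MYC peak of 6.05 in a coding exon 203 bp downstream of the TSS and an E2F1 peak of 28.7.

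PRPS1 and PRPS2, which make PRPP for both pathways, had no MYC peak. PRPS1 had a single E2F1 peak of 26.4 whose summit was 32 bp downstream of the canonical TSS. PRPS2 had the weakest best E2F1 peak of the list, with a fold enrichment of 6.43 at the 4.55th percentile, 636 bp into the gene in intron 1.

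Of the 5 pyrimidine genes, 3 had MYC peaks. CTPS1, which makes CTP from UTP, had 3 MYC promoter peaks, the best with a fold enrichment of 13.1 at the 93.2nd percentile, and the second highest E2F1 value of the list, 56.0. These summits were 71 and 107 bp downstream of the canonical TSS, in the 5′ UTR. CAD, the trifunctional enzyme of the initial steps, had a MYC fold enrichment of 10.6 and an E2F1 fold enrichment of 33.3, with summits 11 bp apart. DHODH, the mitochondrial enzyme of the pathway, had lower values of 6.66 and 19.9. UMPS, which forms UMP, had E2F1 only, but at 38.9, and CTPS2, the isoenzyme of CTPS1, had E2F1 only at 14.8.

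E2F1 fold enrichment was highest in the deoxynucleotide genes, with a median of 50.6 in the 10 genes, against 34.01 in the whole list. In 6 of them it was above 49, as in 2 of the other 24 genes (CTPS1 and MTHFD2). This limit lies just below the lowest of the 6, DTYMK, so the split is not independent of their values. DTYMK was at the 94.5th percentile of all protein-coding genes with an E2F1 promoter peak. RRM2, the S-phase small subunit of ribonucleotide reductase, had the highest E2F1 fold enrichment of the list, 57.4, at the 97.6th percentile and 8 bp upstream of the canonical TSS. RRM1, the large subunit, was at 53.4, DUT, which removes dUTP, at 53.0, and TYMS, which makes thymidylate, at 52.6. The best E2F1 summit of TYMS lay 743 bp downstream of its canonical TSS, in intron 1. That peak is shared with TYMSOS, whose TSS is 616 bp from that of TYMS on the other strand. Nearer the canonical TSS of TYMS, with its summit 111 bp upstream, the E2F1 peak was at 42.5, below the limit of 49. The salvage enzyme TK1 was at 52.0 and thymidylate kinase DTYMK at 49.1.

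The MYC peaks of these genes were not similarly high. RRM1 had a MYC fold enrichment of 8.38, RRM2 8.17, DTYMK 7.98, TK1 6.81 and TYMS 6.15, and DUT had no MYC peak. At RRM2, the MYC summit was not at the main E2F1 summit but 1974 bp upstream of the canonical TSS, at an alternative TSS, where E2F1 had a weaker peak of 20.2 with its summit 18 bp away. RRM2 had 8 E2F1 promoter peaks, the most of any gene in the list. The MYC peak of TK1 lay 318 bp upstream of its canonical TSS and is shared with AFMID, whose TSS is 310 bp away on the other strand. The MYC summit of TYMS lay 656 bp downstream of its canonical TSS, and this peak is shared with TYMSOS.

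NME1 and NME2, the nucleoside diphosphate kinases, showed the opposite order, with high MYC and moderate E2F1 values. NME1 had the highest MYC fold enrichment of the list, 18.9, at the 98.8th percentile, with a summit 70 bp downstream of the canonical TSS. NME2 followed at 14.3, at the 95.6th percentile, in a coding exon 455 bp downstream of its canonical TSS. Their E2F1 fold enrichments were 25.95 and 26.1, at the 60.5th and 61.2nd percentiles. The genes are adjacent on chromosome 17 and a readthrough transcript, NME1-NME2, starts 77 bp from the TSS of NME1, so the peaks at NME1 belong to that transcript as well. The remaining genes of this group had E2F1 only, at 38.0 for the deoxycytidine kinase DCK and at 24.3 for RRM2B, the alternative small subunit of ribonucleotide reductase.

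Among the folate genes, 4 of 5 had MYC peaks and the median E2F1 fold enrichment was 45.7. MTHFD2, a mitochondrial folate enzyme, had a MYC fold enrichment of 10.21 and an E2F1 fold enrichment of 55.6, with summits 51 and 24 bp upstream of the canonical TSS. MTHFD1, its trifunctional cytosolic counterpart, had a MYC fold enrichment of 12.8 and an E2F1 fold enrichment of 45.7. The mitochondrial serine hydroxymethyltransferase SHMT2 had 7.04 and 46.1, and the cytosolic SHMT1 had no MYC peak and 36.4 for E2F1. MTHFD1L had 7.94 for MYC and the lowest E2F1 value of the group, 19.3. In the salvage genes, APRT had 3 MYC peaks, the best at 11.2, and an E2F1 peak of 34.8, whereas HPRT1 had an E2F1 peak of 15.9 and no MYC peak.

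**Figure D3:**
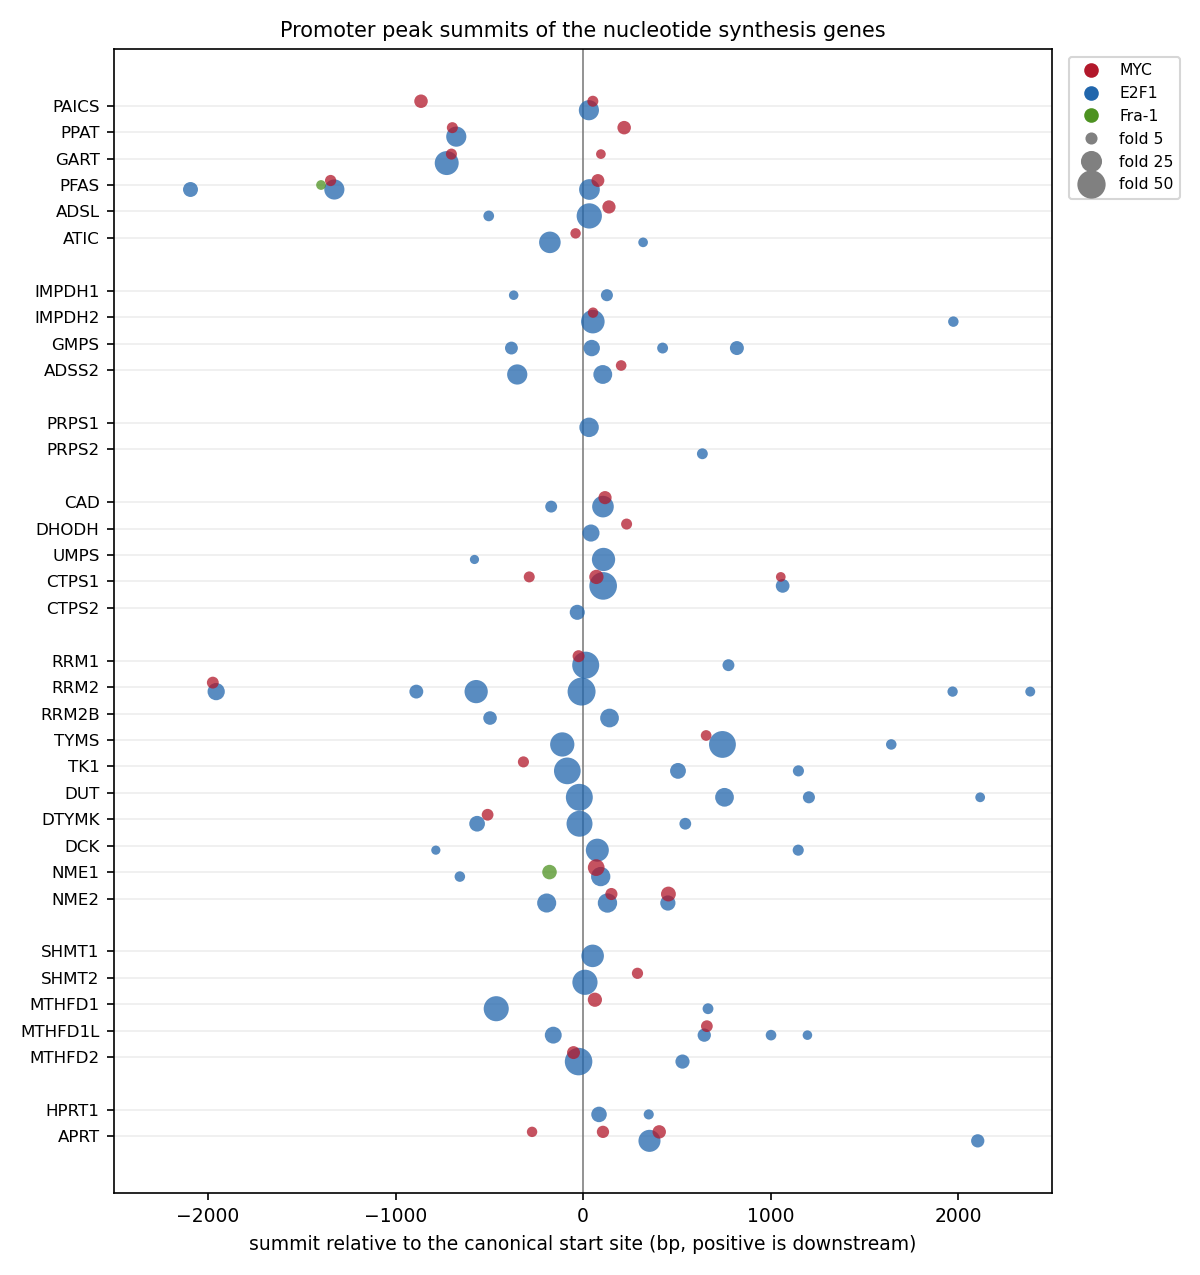
Position of promoter peak summits relative to the canonical TSS (x axis, bp, positive downstream on the gene strand) for each of the 34 genes, with colour for the factor and point area rising with fold enrichment. Summits more than 2500 bp from the canonical TSS are not drawn, among them the Fra-1 peaks of MTHFD1 and MTHFD1L, and the large E2F1 points lie mostly within 250 bp of the line at 0 (27 of 34 best summits).

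From the list, 6 pairs of isoenzymes that carry out the same reaction were compared, and in 4 of them the MYC peak was at 1 gene of the pair. The related folate genes MTHFD1, MTHFD2 and MTHFD1L were not compared as pairs, and all had a MYC peak, at 12.8, 10.21 and 7.94. IMPDH2, CTPS1, RRM2 and SHMT2 had MYC peaks, with fold enrichments of 5.60, 13.1, 8.17 and 7.04. IMPDH1, CTPS2, RRM2B and SHMT1 had none. Both genes of each of these 4 pairs had an E2F1 peak, and its fold enrichment was higher at the gene with the MYC peak, at 40.1 against 8.48 for IMPDH2 and IMPDH1, 56.0 against 14.8 for CTPS1 and CTPS2, 57.4 against 24.3 for RRM2 and RRM2B, and 46.1 against 36.4 for SHMT2 and SHMT1. The other 2 pairs compared did not have this pattern. NME1 and NME2 both had a MYC peak, with near equal E2F1 values of 25.95 and 26.1, and PRPS1 and PRPS2 both had none, with E2F1 values of 26.4 and 6.43. The pairs were picked out after the values were known.

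The 11 genes without a MYC promoter peak had no MYC peak nearby either. The nearest MYC summit was between 48.1 kb (SHMT1) and 1289.6 kb (DUT) from the canonical TSS, with a median of 154 kb. These distances were not measured for other genes without a MYC promoter peak, so they are not shown to be particular to the list. No gene of the list had a MYC peak in its gene body outside the promoter windows. Such peaks were also rare in the other protein-coding genes, at 491 of 20064 (2.45%). Of these 11 genes, 4 were X-linked (PRPS1, PRPS2, CTPS2 and HPRT1), and these were all of the X-linked genes of the list. Of the other X-linked protein-coding genes, 51 of 865 (5.90%) had a MYC peak and 43.7% an E2F1 peak, where the other autosomal genes had 18.3% and 62.0%. Among the autosomal genes of the list, 23 of 30 had a MYC peak (76.7%).

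The median E2F1 fold enrichment was higher in the genes that also had a MYC peak. The 23 genes with a MYC peak had E2F1 values from 19.3 to 57.4 with a median of 40.1, and the 11 without one had values from 6.43 to 53.0 with a median of 24.3. The ranges overlapped, with quartiles of 28.6 and 50.6 in the former and 15.3 and 37.2 in the latter. DUT, at 53.0, was the highest of the genes without a MYC peak. The ratio of the medians was 1.65. The same order was seen in the other protein-coding genes, with medians of 32.1 and 18.5. With all lists reduced to 4867 peaks, which left 24 of the 34 genes with an E2F1 peak, the ratio was 1.13.

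**Figure D4:**
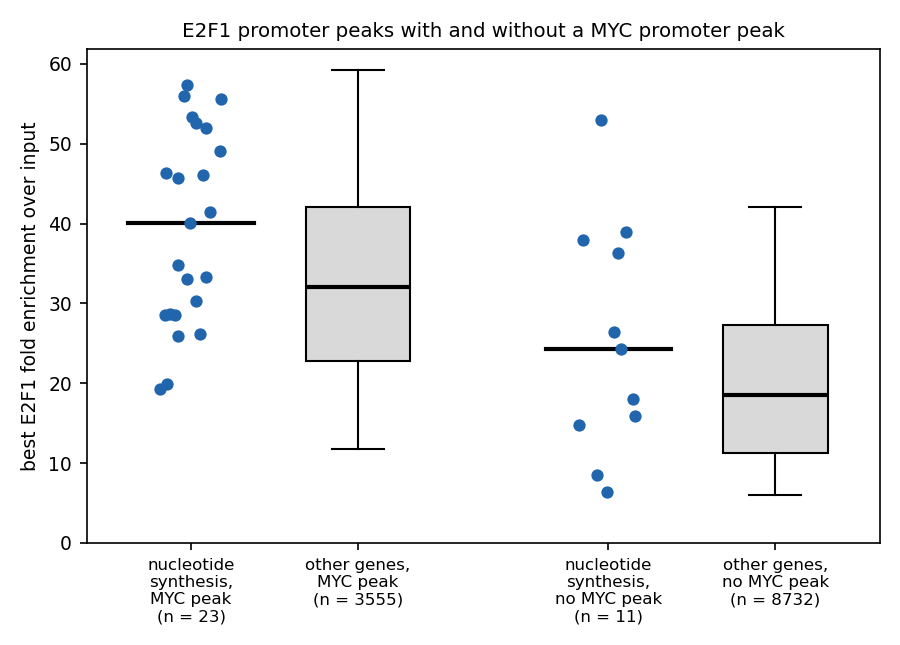
Best E2F1 fold enrichment over input (y axis, linear) for nucleotide synthesis genes with and without a MYC promoter peak (points are genes, black lines medians) beside the other protein-coding genes (boxes are quartiles with the median as a line, whiskers the 5th and 95th percentiles). The medians of the list are 40.1 with and 24.3 without MYC, and DUT at 53.0 is the highest point without MYC.

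All 32 MYC promoter peaks counted over the genes overlapped an E2F1 peak, as did 98.0% of those counted over the other protein-coding genes. The 32 were 30 distinct peaks, since PAICS and PPAT share theirs. For the best MYC peak of the 23 genes, the median distance to the summit of the overlapping E2F1 peak was 52 bp, and 15 were within 100 bp. In 18 genes this was the strongest E2F1 peak of the gene, and in the other 5 (ADSS2, RRM2, DTYMK, NME2 and MTHFD1L) a weaker one. For overlapping peaks, these values were not computed in the other genes. The distance between the best MYC and the best E2F1 summit had a median of 137 bp, against 117 bp in the other genes with both. It was within 100 bp in 10 of the 23 genes (43.5%), against 46.8%.

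The E-box was searched on both strands of GRCh37 around the MYC summits. A motif was counted within 50 or 100 bp of a summit when all of its letters fell inside that distance. The whole E-box lay within 50 bp of a MYC summit in 7 of the 23 genes (30.4%), against 21.6% of the other genes with a MYC peak. Within 100 bp it was in 11 genes (47.8%), against 29.3%, and anywhere inside a MYC peak in 13 (56.5%), against 31.1%. PAICS and PPAT both count among the 11 and the 13, through the same peaks and E-boxes. The MYC peaks were wider in the list, with a median summed width of 381 bp per gene against 247 bp. The genes below, read on the strand of each gene with the E-box in capitals, are the 7 with the whole E-box within 50 bp of the summit, each with the E-box nearest to it, and they show how the bases around the same 6 letters vary.
PFAS, plus strand, chr17:8152643-8152672: gagtgcatcttcCACGTGagtatagttacc
ATIC, plus strand, chr2:216176724-216176753: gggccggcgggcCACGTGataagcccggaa
CAD, plus strand, chr2:27440336-27440365: gcgcgccgtcctCACGTGgttccagtggag
DHODH, plus strand, chr16:72042844-72042873: cgtgtgcatttgCACGTGgactcggtcagg
NME1, plus strand, chr17:49230942-49230971: agtgctgcgaacCACGTGggtcccgggcgc
MTHFD1L, plus strand, chr6:151187456-151187485: cacgcccggctcCACGTGcgcagccggccg
APRT, minus strand, chr16:88877883-88877912: cgccgagggcagCACGTGggctctgcgcgt
From the nearest letter of the E-box, the MYC summit was 1 bp away in ATIC and CAD, 14 bp in DHODH, 25 bp in MTHFD1L, 26 bp in PFAS, 30 bp in APRT and 31 bp in NME1. ATIC, with an E-box 1 bp from its summit, had one of the weakest MYC peaks of the list (5.69), whereas CTPS1, at 13.1, had no E-box in its MYC peaks.

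**Figure D5:**
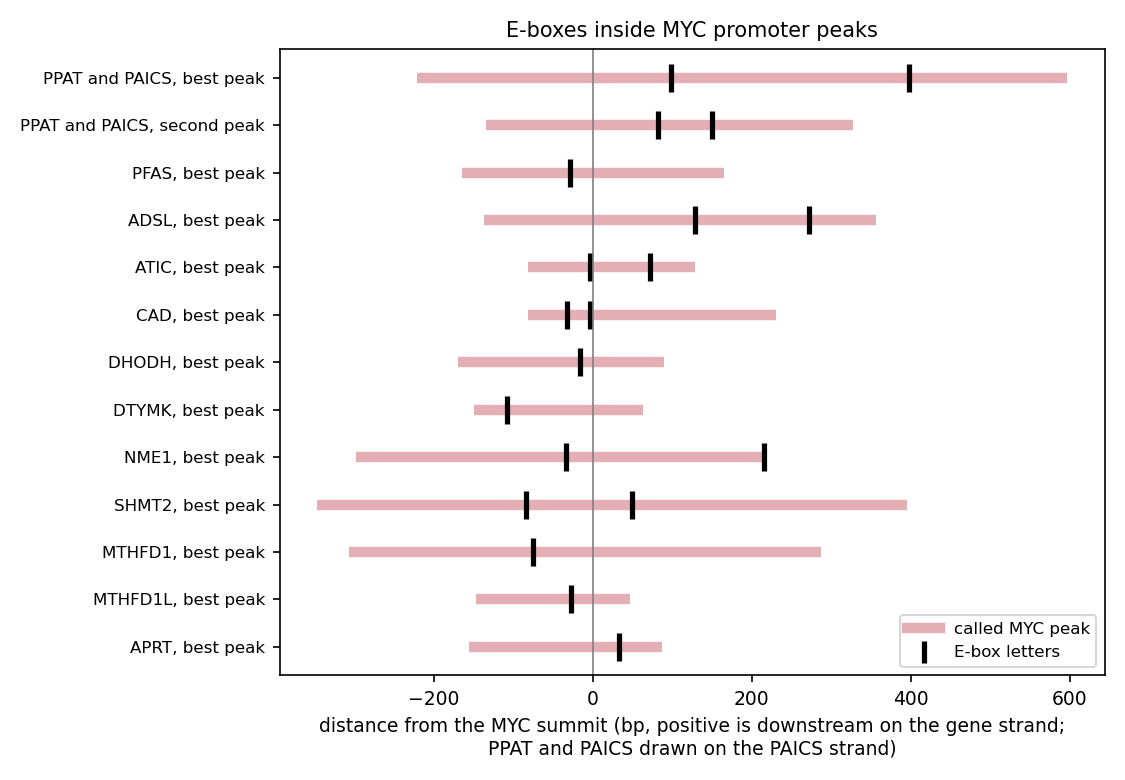
E-boxes (black ticks) inside MYC promoter peaks (red bars) by distance from the MYC summit (x axis, bp, positive downstream on the gene strand, PPAT and PAICS on the PAICS strand). The 13 genes with the letters in a peak are shown, with PPAT and PAICS drawn together in the upper lines with 4 E-boxes, and the ticks of ATIC and CAD lie at the summit.

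Around the canonical TSS, in windows of 250 bp to either side, the E-box was present in 11 of the 34 genes (32.4%), against 10.96% of the other protein-coding genes. In the aminoacyl-tRNA synthetase genes it was present in 13.5% and in the DNA replication genes in 11.6%. This is a count of letters in these windows and not of bound sites.

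For E2F1, the letters TTTCCCGC, TTTCGCGC, TTTGCCGC and TTTGGCGC were searched on both strands. The whole motif was within 50 bp of a summit in 2 of the 34 genes (5.88%), against 5.08% of the other genes with an E2F1 peak. Within 100 bp they were in 8 genes (23.5%), against 7.85%, and inside an E2F1 peak in 17 (50%), against 15.1%. PAICS and PPAT both count among the 17, through their shared E2F1 peak. The summed width of E2F1 peaks was 1257.5 bp in the list and 905 bp in the other genes. Around the canonical TSS the letters were in 7 of the 34 genes (20.6%), against 6.23% of the other protein-coding genes and 48.8% of the DNA replication genes. The sequences of DUT and HPRT1, the genes with the whole motif within 50 bp of an E2F1 summit, are given on the gene strand with the letters in capitals. RRM1 is added because TTTCCCGC occurs as a repeated pair inside its peak, of which the copy farther from the summit is in capitals and the nearer one precedes it in lower case.
DUT, plus strand, chr15:48624356-48624385: gaaatttcggtTTTGGCGCgctccctgcgg
HPRT1, plus strand, chrX:133594227-133594256: aacctctcggcTTTCCCGCgcggcgccgcc
RRM1, plus strand, chr11:4116363-4116392: cctttcccgcaTTTCCCGCcgcggccttcc
In DUT the nearest of the letters was 6 bp from the summit of a weaker E2F1 peak (fold enrichment 24.3) and not at the best one, 20 bp upstream of the canonical TSS. In HPRT1 the nearest letter was 35 bp from the best summit, and in RRM1 the copies were 322 and 331 bp from it.

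Fra-1 peaks were few and differed in kind. At NME1, the Fra-1 fold enrichment was 13.6, at the 82.7th percentile, with the summit 179 bp upstream of the canonical TSS and inside the MYC peak. At MTHFD1, peaks of 11.1 and 8.65 lay in introns 8 and 16, 33079 and 50389 bp downstream of the canonical TSS, and were counted because alternative TSSs are annotated nearby. At MTHFD1L, a peak of 9.89 lay in intron 25, 170799 bp downstream. NME1 and PFAS were therefore the only genes with Fra-1 and MYC peaks overlapping, and with the canonical TSS alone they were the only genes of the list with a Fra-1 promoter peak.

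The AP-1 letters TGACTCA were searched on both strands and lay within 50 bp of a Fra-1 summit in 2 of these 4 genes, against 53.9% of the other genes with a Fra-1 promoter peak. They are shown on the plus strand, as are the letters near the MYC summit of RRM2, at which no Fra-1 peak was listed.
NME1, plus strand, chr17:49230731-49230760: aacgaaggaagTGAGTCAgagaacccgggg
MTHFD1, plus strand, chr14:64905436-64905465: tggaaagtcaaTGAGTCAtcatcccacaga
RRM2, plus strand, chr2:10260846-10260875: ccacgccgagaTGACTCAggtttagcgcgg
The letters were 1 bp from the Fra-1 summit in NME1 and 7 bp from the weaker one in MTHFD1. In RRM2 they were 29 bp from the MYC summit.

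Outside promoter windows, 11 Fra-1 peaks lay in the gene bodies of 6 genes, with 6 of them in MTHFD1L and 1 each in CTPS2, RRM2, TK1, DTYMK and HPRT1. Of 11 such E2F1 peaks in 5 genes, 7 were in MTHFD1L. Such peaks were in 17.6% of the 34 genes for Fra-1 and in 14.7% for E2F1, against 17.3% and 17.8% of the other protein-coding genes. Of the 30 genes without a Fra-1 promoter peak, 3 had a Fra-1 summit within 10 kb of the canonical TSS, CTPS2 at 6.78 kb, TK1 at 7.44 kb and DTYMK at 5.82 kb. Among the other protein-coding genes without a Fra-1 promoter peak this share was 7.42%.

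A further 52 genes of nucleotide metabolism are not in the list. They cover folate transport and recycling, nucleotide kinases, nucleoside salvage, further synthesis genes with regulatory subunits, and breakdown. Of these 52, 17 had a MYC promoter peak (32.7%), 40 an E2F1 peak (76.9%) and 12 a Fra-1 peak (23.1%). By function, MYC peaks were at 3 of 10 folate genes, 3 of 11 kinases, 4 of 8 salvage genes, 2 of 6 synthesis genes and 5 of 17 breakdown genes. The highest MYC fold enrichment was 13.5 at UCKL1, a uridine-cytidine kinase family gene, followed by 10.3 at FPGS, which adds glutamate to folate. No peak of any factor was listed at 12 of the 52 genes (23.1%), against 37.8% of all protein-coding genes. These were the folate genes ALDH1L1 and SLC19A1, the kinases AK3, CMPK2 and NME4, and the synthesis genes ADSS1 and PRPS1L1. The others were the breakdown genes CDA, DPYS, UPB1, AMPD1 and GDA.

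The aminoacyl-tRNA synthetase genes, which also serve growth but not DNA, resembled the list in MYC share, with 23 of 37 (62.2%), and in E2F1 share, with 35 of 37 (94.6%). The median MYC fold enrichment was 7.05 there and 8.38 in the list. The DNA replication genes had MYC peaks at 18 of 43 (41.9%) with a median fold enrichment of 6.14, and E2F1 peaks at all 43 with a median of 38.6, against 34.01 in the list. The nucleotide synthesis genes thus lay near the former in MYC share and between both in median E2F1 fold enrichment, which was 32.4 in the synthetase genes.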

How the data were processed

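ChIP-Seq peak lists of MYC, E2F1 and Fra-1 from untreated LM2 cells were used, with 1 library per factor. Reads were processed by the authors with Trimmomatic 0.27, Bowtie 0.12.5 on a masked hg19 genome, SAMtools and MACS2 2.0.10 at a q-value cutoff of 0.01, with 1 input for all factors (submitters' processing notes and the study's methods). Only uniquely mapped reads were kept, which can lower pileups in repeated sequence. The deposited signal is the pileup at the summit, the deposited fold enrichment is its ratio to the local background, and the deposited p- and q-values are −log10 values. By default MACS2 scales the larger of both libraries down, and it kept 1 tag per position, leaving 23853621 tags for MYC, 18056168 for E2F1, 12931227 for Fra-1 and 10758036 for the input. The deposited BED files hold the same peaks and were only checked.

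TSSs were those of GENCODE 44 mapped to GRCh37 (63827 genes, of which 20098 are protein-coding). A peak that overlapped a promoter window by at least 1 bp was counted, and the best peak was that with the highest fold enrichment. Motifs were read from GRCh37. All 34 genes are named. Of the 52-gene list, only genes with a MYC or Fra-1 peak or without an E2F1 peak could be named, and some of them are. Neighbours were named within 1 kb where they share a peak. The isoenzyme pairs and the X-linked genes were picked after their values were seen. The genes, lists and rules were chosen with earlier results of these data known. Counts were made with Python 3.11.15, numpy 2.4.6, pandas 2.3.3 and pysam 0.24.0. On simulated data, 200 of 200 planted peaks and 300 of 300 planted motifs were found. Alternatives were stricter peaks (−log10 q or fold enrichment of at least 5), equal peak numbers, windows of 1 kb, summits in the window, other TSS sets, the best peak by −log10 q, and other motif windows. A background of CpG-rich TSSs and the omission of PPAT were added after seeing the data.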

Additional observations from a re-analysis of the deposited data

How the results depend on the processing

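Of 134 alternative values of 19 results, 119 moved by no more than 1.5 times. With the canonical TSS only, the median summit distance was 219 bp for the 23 genes with a MYC peak (47 bp with all TSSs), 84.5 bp for the 34 with an E2F1 peak (31 bp) and 788 bp for the 2 with a Fra-1 peak (373.5 bp over 4), and Fra-1 peaks and all 3 factors were each at 2 genes (4). With TSSs of protein-coding transcripts only, the MYC distance was 78 bp. With lists of equal length (4867 peaks), Fra-1 peaks were at 2 genes, all 3 factors at 1 and E2F1 alone at 4 (11), and the share of genes with a peak relative to other genes was 2.76 for E2F1 (1.63) and 1.72 for Fra-1 (0.888), so that the latter ratio crossed 1. Within 100 bp of a summit, the E-box was at 11 genes (7 within 50 bp) and the E2F letters at 8 (2). At the best peak only, the E2F letters were at 1 gene and the AP-1 letters at 1 (2). No paired analysis was possible because each factor had 1 library, and no replicate could be left out for the same reason. Fold enrichments carry no replicate error, the input was the shallowest library, and counts of 4 genes or fewer turn on single peaks. Antibodies and depths differed between factors, so the efficiency of each immunoprecipitation and the number of bound genes cannot be told apart.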
